A study of Mus musculus with 15 samples.

Results

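The comparison sets GL261 and 005 tumors, which the study classified as immunologically active, against CT2A and Mut3 tumors, which it classified as immunologically inert. Each side held 6 of the 15 sequenced samples, 3 per line, and each line was given equal weight. Naïve brain tissue from 3 mice served as the background. All hosts were C57BL/6 mice, 6 to 8 weeks old when cells were implanted in the right hemisphere, and all lines carried a retroviral GFP and firefly luciferase marker. For CT2A, GL261 and 005 the implant was 100000 cells, for Mut3 it was 500000, and mice were perfused with PBS when they reached the humane endpoint. CT2A and GL261 are lines induced with methylcholanthrene. CT2A is wild type for p53, whereas GL261 is mutant for K-ras and p53. 005 was made with active H-ras and AKT in p53+/- cells, and Mut3 has inactivated NF1 and p53. With 2 lines per class, tumors of a line are repeats of that line rather than of its class, and the p-values measure the spread within lines. The 2 classes were assigned from these same RNA data, so that the direction of immune genes is not independent evidence.

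Glioma lines grown in immunocompetent brain hold tumor cells, infiltrating leukocytes, microglia and the surrounding neural tissue, all of which give RNA to a bulk sample. T and NK cells release interferon-γ, which acts through transcription factors such as IRF1 to switch on guanylate-binding proteins and immunity-related GTPases, and through the coactivator CIITA to switch on MHC class II genes. MHC class II molecules present peptides to CD4+ T cells and are normally carried by dendritic cells, B cells and activated macrophages and microglia. Type I interferons act through a related complex on an overlapping group of antiviral genes such as Isg15 and the Ifit family. In bulk tissue, more cells of a type and more RNA per cell cannot be told apart.

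Library totals ran from 5380395 to 13130158 counts in GL261 and 005 (median 7883916) and from 7246421 to 11308105 in CT2A and Mut3 (median 8452572). Naïve brain was shallower, at 3105119 to 5161132 counts. A level of 3 counts corresponded to 0.214 to 0.622 CPM (counts scaled to a common library total with TMM factors) in GL261 and 005, 0.264 to 0.466 CPM in CT2A and Mut3 and 0.612 to 0.811 CPM in naïve brain, for counting error only. Mitochondrial genes took 17.8% of the counts in 005 replicate 3, against 3.48% to 7.59% in CT2A and Mut3 and 15% to 24% in naïve brain. That library stood apart from the other 005 tumors, with summed neuron markers at 4270 CPM and summed cell cycle genes at 203.5 CPM, and several results are also given without it.

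Of 17481 genes tested, 2209 (12.6%) were called higher in GL261 and 005 and 750 (4.29%) were called lower, where a call required an adjusted p (Benjamini-Hochberg, edgeR) below 0.05 and a log2 difference of 1 or more between the sides. A gene was separated when both line means on one side, in log2 CPM, lay beyond both on the other. By this rule 4668 genes (26.7%) were separated with GL261 and 005 higher and 3340 (19.1%) with GL261 and 005 lower. No overlap between the 6 and the 6 samples was seen for 332 genes (1.9%) in the first direction and 351 (2.01%) in the second. Separated and called in the same direction were 1944 genes that were higher and 639 that were lower. At the edge of the rule lay Ctsc, just inside with a gap of 0.000666 log2 units, and Lrrc8b, just outside at -0.000311. In the other direction Sde2 was just inside at 0.000388 and Dis3 just outside at -0.000267. The median log2 fold change over all tested genes was 0.101.

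MHC class II genes divided the active from the inert lines. All 10 listed genes were called higher in GL261 and 005, all 10 were separated, and in 8 of them the 6 and the 6 samples did not overlap. Their median log2 fold change was 3.21, with a range of 2.20 to 3.87. Ciita, the master coactivator of the pathway (chr16:10480059-10528418, GRCm38, forward strand), had 1.55, 8.58 and 19.6 CPM as the lowest, median and highest value in GL261 and 005. It had 0, 0.571 and 1.5 CPM in CT2A and Mut3 and no count in naïve brain, where 3 counts correspond to at most 0.811 CPM. The lowest active tumor, 005 replicate 1, was thus barely above the highest inert one, and the log2 fold change was 3.87 ± 0.74 (SE, adjusted p = 0.00487). Cd74, the invariant chain that guards the peptide groove, ranged from 44.8 to 267 CPM with a median of 115 in GL261 and 005, and from 4.7 to 27.4 CPM with a median of 13.5 in CT2A and Mut3. Its log2 fold change was 3.17 ± 0.52 (adjusted p = 0.00179), without overlap. H2-Aa, the α chain of I-A, had 4280, 1310 and 2220 CPM in the 3 GL261 tumors and 701, 3820 and 759 CPM in the 3 005 tumors. It had 140, 254 and 240 CPM in CT2A, 45, 158 and 422 CPM in Mut3 and 37.7 to 47.8 CPM in naïve brain. Every active tumor was above every inert tumor, with a log2 fold change of 3.35 ± 0.56 (adjusted p = 0.00202). H2-Eb1, the β chain of I-E, had 452, 178 and 384 CPM in GL261, 107, 935 and 162 CPM in 005, 25.5 to 38.2 CPM in CT2A and 15.2 to 66.8 CPM in Mut3. It was again higher in every active tumor, by 3.45 ± 0.54 log2 units (adjusted p = 0.00151).

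The class II difference was seen against each inert line. Of the 10 genes, 9 were called higher in GL261 than in CT2A and 10 in GL261 than in Mut3, where 3.62% and 11.1% of all tested genes were called. In 005, 8 were called higher than in CT2A and 8 higher than in Mut3, where 1.99% and 14% of all genes were called. Between CT2A and Mut3 the edgeR test called 0 of the 10, with 0 at an unadjusted p under 0.05, and the list's median log2 difference was 0.05. These pairs share samples, so they are not separate tests. When Mut3 was left out, 9 of the 10 genes were called (2.65% of all genes were called higher), and H2-Ob was the exception at a log2 fold change of 1.48 (adjusted p = 0.245). H2-Ob and H2-DMb1 were the 2 genes whose samples overlapped between the sides. The peptide-loading subunits H2-DMa and H2-DMb2 and the modulator H2-Oa were higher by 2.77 ± 0.45, 3.27 ± 0.39 and 3.07 ± 0.46 log2 units. The summed CPM of the list ran from 1130 to 6550 in GL261 and 005, from 99.8 to 698 in CT2A and Mut3 and from 79.4 to 111 in naïve brain, and all 10 genes were lowest in naïve brain. The mean log2 CPM of the list was lowest among active tumors in 005 replicate 1, at 4.57, and highest among inert tumors in Mut3 replicate 3, at 3.91.

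**Figure D1:**
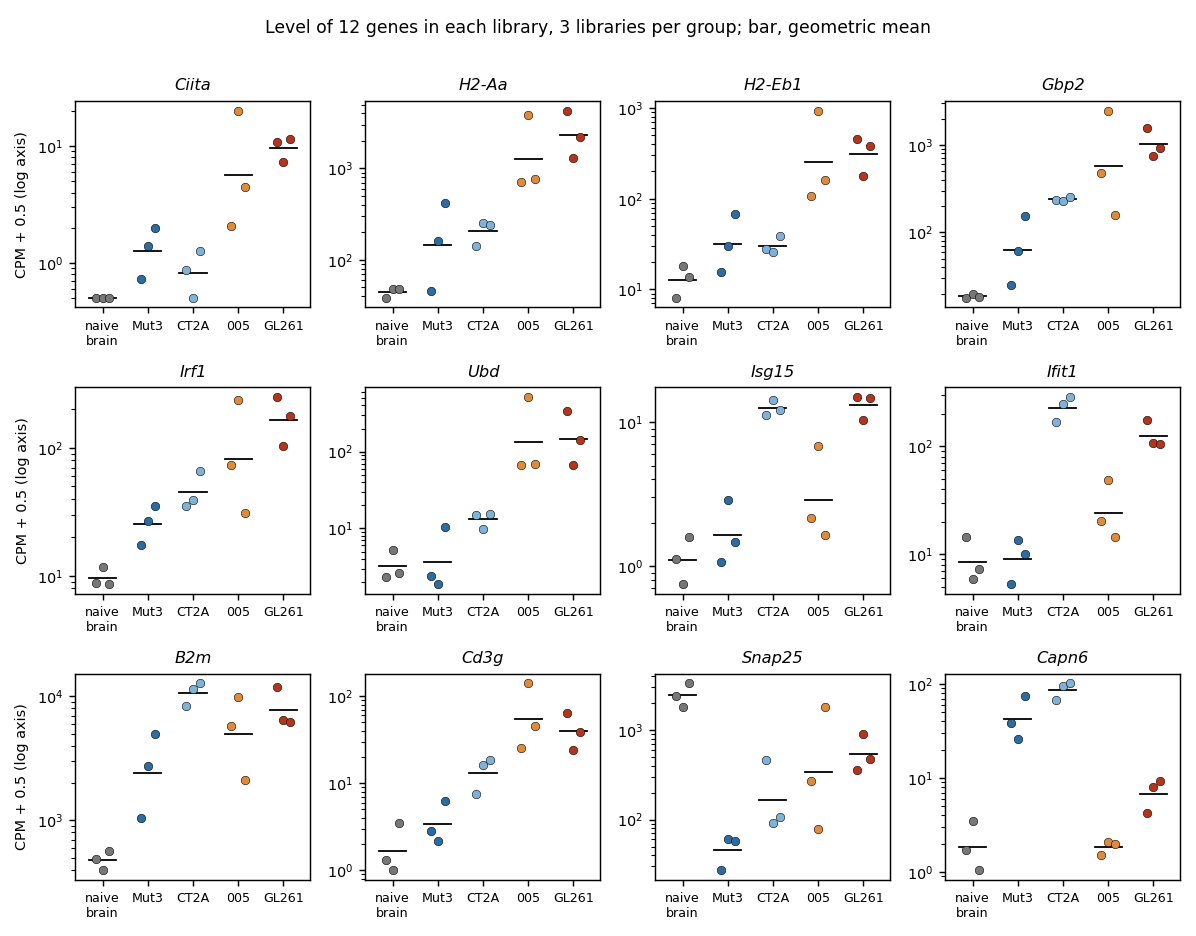
Level of 12 genes in each library, as CPM plus 0.5 on a log axis, for naïve brain and the 4 lines (points, single libraries, 3 per group; bars, geometric means). Ciita, H2-Aa, H2-Eb1 and Ubd put all GL261 and 005 tumors above all CT2A and Mut3 tumors, Isg15 and Ifit1 are highest in CT2A and GL261, and Capn6 is lower in all GL261 and 005 tumors.

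Promoter sequences are shown for genes of these pathways because the lists are defined by the signal that drives them. They are the 150 bases before the RefSeq start on GRCm38.p6, read in the direction of the gene. Capitals mark matches on either strand to CCAAT, to the interferon-stimulated response element (ISRE, written as GAAA, any 2 bases and GAAA) or to the interferon-γ activated site (GAS, TTCNNNGAA).
H2-Aa, chr17:34287824-34287973, reverse strand: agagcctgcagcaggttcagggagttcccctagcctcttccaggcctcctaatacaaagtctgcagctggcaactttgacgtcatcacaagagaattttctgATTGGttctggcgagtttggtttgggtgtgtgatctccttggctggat
H2-Eb1, chr17:34305717-34305866, forward strand: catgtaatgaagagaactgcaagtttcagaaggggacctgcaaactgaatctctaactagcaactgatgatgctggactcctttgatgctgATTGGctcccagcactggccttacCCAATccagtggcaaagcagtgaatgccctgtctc
Irf1, chr11:53769864-53770013, forward strand: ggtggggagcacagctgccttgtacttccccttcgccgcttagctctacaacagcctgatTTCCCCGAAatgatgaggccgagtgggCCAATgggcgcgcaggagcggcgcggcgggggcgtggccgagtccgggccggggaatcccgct
Igtp, chr11:58199406-58199555, forward strand: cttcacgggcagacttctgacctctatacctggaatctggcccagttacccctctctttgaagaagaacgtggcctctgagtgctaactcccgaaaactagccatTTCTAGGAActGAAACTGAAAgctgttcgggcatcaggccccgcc
Isg15, chr4:156200819-156200968, reverse strand: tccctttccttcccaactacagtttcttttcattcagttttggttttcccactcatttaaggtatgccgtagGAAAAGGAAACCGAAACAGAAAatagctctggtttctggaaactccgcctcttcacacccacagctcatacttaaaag
H2-Aa held 1 CCAAT match and H2-Eb1 held 2. Irf1 held the GAS letters and CCAAT. Igtp held the GAS letters just before the ISRE letters, and Isg15 held 3 overlapping matches to the ISRE. Other promoters were read over the same 150 bases but are not printed. H2-DMa and Tap1 held 0 matches. Ubd, Cxcl9, Cxcl10, Psmb9, H2-DMb2, H2-Oa and Capn6 held CCAAT only. Gbp2, Ifit1, Ifit3 and Rsad2 held the ISRE letters, Gbp5 the GAS letters and Irgm2 both. In the full window of 250 bases before to 50 after the start, the ISRE letters were found in 10 of the 13 interferon-γ-induced genes with a promoter sequence (76.9%) and in 7 of 12 type I interferon-stimulated genes (58.3%), against 3.49% of 27025 promoters. The GAS letters were found in 7 of the 13 (53.8%) and 2 of the 12 (16.7%), against 8.47% of all promoters, and CCAAT in 37.9% of all promoters. Only 7 of the 10 class II genes and 11916 of 17478 tested genes had a sequence, so shares over the class II list and over called genes are void and are not given. A match is a string of letters and was not tested as a binding site.

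Most genes induced by interferon-γ were also called higher in GL261 and 005, though few were called between 005 and CT2A. Of 15 listed genes, 14 were called higher, 12 were separated and 1, Ubd, showed no overlap between samples. The list's median log2 fold change was 2.17, and all 15 were lowest in naïve brain. Irf1, a transcription factor that interferon-γ induces, ranged from 30.3 to 249 CPM (median 139) against 16.8 to 65.5 CPM (median 34.6), with a log2 fold change of 2.03 ± 0.42 (adjusted p = 0.00556). Gbp2, a guanylate-binding protein of cell-autonomous defense, had 1540, 742 and 929 CPM in GL261 and 471, 2460 and 157 CPM in 005. It had 229 to 255 CPM in CT2A and 24.8 to 154 CPM in Mut3, and was higher by 2.92 ± 0.56 log2 units (adjusted p = 0.00417). The 1 active tumor inside the inert range was 005 replicate 3. Tgtp2 was separated but not called (1.99 ± 0.78, adjusted p = 0.0817), and Gbp3, Gbp7 and Irgm1 were called but not separated because the mean of CT2A lay above that of 005. Tgtp1 and Tgtp2 are near-identical copies, so that their shares of reads are uncertain. Summed over the list, CPM ranged from 991 to 11900 in GL261 and 005 and from 350 to 1830 in CT2A and Mut3. Against CT2A, the edgeR test called 6 of the 15 higher in GL261 and 1 in 005 (5 at an unadjusted p under 0.05). Of all tested genes, 3.62% and 1.99% were. Against Mut3, 13 and 8 were called, where 11.1% and 14% of all genes were. The list's mean log2 CPM was 6.3, 8.49 and 5.35 in the 3 005 tumors, and 5.68, 5.99 and 6.01 in CT2A. Without Mut3, 3 of the 15 genes were called, namely Ubd (3.93, adjusted p = 0.015), Igtp (2.33, adjusted p = 0.0327) and Irgm2 (2.17, adjusted p = 0.0485), and 11 had an unadjusted p under 0.05. Without GL261, 5 of the 15 were called, where 9.38% of all genes were called higher.

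Type I interferon-stimulated genes did not follow the division. None of the 14 listed genes was separated in either direction and 1, Oasl2, an antiviral synthetase-like gene, was called higher (1.38 ± 0.47, adjusted p = 0.0496). It turned to -0.38 when Mut3 was left out, and was not called when any 1 of the libraries CT2A 1, 2 or 3, GL261 1, 2 or 3, 005 2 or Mut3 1 or 3 was left out. The lines fell in another order, with CT2A and GL261 high and 005 and Mut3 low. Isg15, a ubiquitin-like modifier, had 10.7, 13.8 and 11.6 CPM in CT2A and 14.5, 9.86 and 14.2 CPM in GL261. It had 1.65, 6.28 and 1.14 CPM in 005, 0.559, 2.39 and 0.967 CPM in Mut3 and 0.249 to 1.08 CPM in naïve brain. Ifit1, which binds foreign RNA, had 167 to 286 CPM in CT2A, 105 to 174 in GL261, 14.1 to 48 in 005 and 4.81 to 13 in Mut3. Its log2 fold change between the classes was 0.37 ± 0.34 (adjusted p = 0.465). Within the classes, it was higher in CT2A than in Mut3 by 4.67 ± 0.56 log2 units (adjusted p = 0.000156) and higher in GL261 than in 005 by 2.23 ± 0.50 (adjusted p = 0.0273). Of all tested genes, 12.8% were called in either direction between CT2A and Mut3 and 2.62% between GL261 and 005. Ifit2, of the same family, was at 0.72 ± 0.32 between the classes. Of the 14 genes, 13 were called higher in CT2A than in Mut3 (6.61% of all tested genes were), 11 higher in GL261 than in Mut3 (11.1%) and 4 lower in 005 than in CT2A (2.12%). The class result for this list changed with the lines included. Without CT2A, 11 genes were called higher (15.3% of all genes were), and without 005, 11 were called higher (12.4% of all genes). Without Mut3 the edgeR test called 0 higher and 4 lower (7 at an unadjusted p under 0.05). The 4 were Ifit1, Mx1, Oasl1 and Rsad2, where 3.91% of all genes were called lower.

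MHC class I genes and the peptide-loading machinery were intermediate. Of 13 listed genes, 7 were called higher and 8 were separated, with a median log2 fold change of 1.20. B2m, the light chain shared by all class I molecules, had 6260 to 11900 CPM in GL261, 2130 to 9830 in 005, 8350 to 12800 in CT2A and 1040 to 4960 in Mut3. CT2A thus had the highest mean of the 4 lines, and the log2 fold change between the classes was 0.30 ± 0.38 (adjusted p = 0.603). H2-K1, a classical heavy chain, ranged from 390 to 2080 CPM (median 749) against 111 to 693 CPM (median 441), with a log2 fold change of 1.20 ± 0.38 (adjusted p = 0.0371). H2-D1, the other classical heavy chain, was at 0.31 ± 0.35. The genes called were H2-K1, the transporters Tap1 and Tap2, the chaperone Tapbp, the immunoproteasome subunit Psmb10 and the proteasome activators Psme1 and Psme2. Nlrc5, which drives class I genes as Ciita drives class II genes, was at 0.75 ± 0.40 (adjusted p = 0.191). Without 005 replicate 2, 4 of the 13 were called, and without GL261, 2 were. Against CT2A the edgeR test called 3 in GL261 and 0 in 005 (4 at an unadjusted p under 0.05). Of all tested genes, 3.62% and 1.99% were. Against Mut3, 7 and 4 were called, where 11.1% and 14% of all genes were. When Mut3 was left out, the edgeR test called 0 of the 13 (7 at an unadjusted p under 0.05). The share of all genes called higher was then 2.65%. H2-K1, H2-D1 and other class I genes are close paralogs, and reads shared between them could be split.

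**Figure D2:**
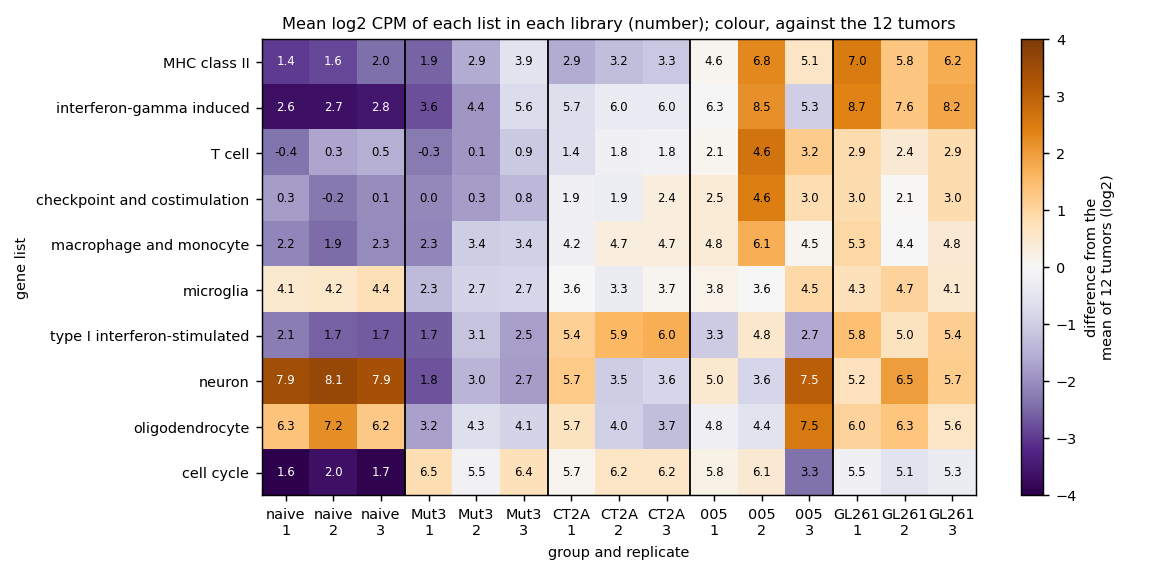
Mean log2 CPM of the tested genes of 10 lists in each of the 15 libraries (numbers), coloured by the difference from the mean of the 12 tumors. MHC class II genes are above 4.5 in all GL261 and 005 tumors and below 4 in all CT2A and Mut3 tumors, whereas type I interferon-stimulated genes are above 5 in CT2A and below 5 in 005.

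T cell genes were higher in GL261 and 005, with CT2A in between and Mut3 lowest. Of 17 listed genes 16 were tested, and 14 were called higher and 15 separated. Samples did not overlap in 5 (Cd3d, Cd3g, Trac, Trbc2 and Cd4), and the median log2 fold change was 2.44. Cd3e was too low to be tested. Cd3d, a CD3 chain of the T cell receptor complex, ranged from 13.4 to 94.5 CPM (median 23.2) against 1.79 to 10.5 CPM (median 7.23), a log2 fold change of 2.38 ± 0.41 (adjusted p = 0.00232). Cd3g, another CD3 chain, had 64, 23.8 and 38.3 CPM in GL261 and 25.2, 141 and 45.2 CPM in 005. It had 7.08, 15.7 and 18 CPM in CT2A and 2.35, 1.64 and 5.8 CPM in Mut3, and was higher by 3.02 ± 0.51 log2 units (adjusted p = 0.00202). The cytotoxic coreceptor genes Cd8a and Cd8b1 were higher by 2.43 ± 0.49 and 2.46 ± 0.49. Cd4 was higher by 2.03 ± 0.61, but naïve brain had 1.22, 26.4 and 4.6 CPM, so that its mean lay above that of every line. Against Mut3, 11 of the 16 genes were called in GL261 and 13 in 005, where 11.1% and 14% of all tested genes were. Against CT2A 0 were called in GL261 (5 at an unadjusted p under 0.05) and 2 in 005. The shares of all tested genes were 3.62% and 1.99% there. Without Mut3, 2 of the 15 then tested were called, namely Cd3d (1.81, adjusted p = 0.0399) and Trbc2 (1.66, adjusted p = 0.0376). Trbc2 does not mark T cells of the tumor alone, for it had 27.9, 43.3 and 56.5 CPM in naïve brain. Those values lay above its 12.8, 19.4 and 24 CPM in CT2A.

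Most cytotoxic and checkpoint genes were also called higher in GL261 and 005. Of 13 tested cytotoxic T and NK cell genes 8 were called higher and 9 separated, and none was free of overlap. Gzmb, the granzyme of killer cells, had 31.2 to 132 CPM in GL261, 18.7 to 202 in 005, 45.6 to 64.5 in CT2A and 1.76 to 2.14 in Mut3. CT2A lay inside the range of the active tumors. The difference between the classes was 3.05 ± 0.48 log2 units (adjusted p = 0.00151), and that between CT2A and Mut3 was 4.79 ± 0.74 (adjusted p = 0.00087). Nkg7, a granule protein, was higher by 2.45 ± 0.53 (adjusted p = 0.00717). Prf1, the pore-forming perforin, had 2.07 to 3.91 CPM in CT2A, 0 to 0.088 CPM in Mut3, 0.162 to 1.46 CPM in GL261 and 0.412 to 5.31 CPM in 005, and was not called (1.64 ± 0.81, adjusted p = 0.157). Ifng itself was low, at 0.162 to 9.54 CPM against 0 to 0.977 CPM, with a log2 fold change of 3.04 ± 0.81 (adjusted p = 0.0181). Of 11 tested checkpoint and costimulation genes, 10 were called higher and 9 separated, and only Cd40 was free of overlap. Pdcd1, the gene for PD-1, ranged from 2.06 to 11.3 CPM (median 2.94) against 0 to 2.71 CPM (median 0.735), with a log2 fold change of 2.05 ± 0.64 (adjusted p = 0.035). Cd274, the gene for PD-L1, ranged from 9.83 to 86.4 CPM (median 37.7) against 2.14 to 21.4 CPM (median 9.14), with 2.43 ± 0.49 (adjusted p = 0.00517). Ctla4, an inhibitory receptor, was at 1.80 ± 0.66 (adjusted p = 0.0644) and was separated but not called. Without Mut3, the edgeR test called 0 of the 13 cytotoxic genes (4 at an unadjusted p under 0.05) and 0 of the 11 checkpoint genes (3 at an unadjusted p under 0.05). Without 005 replicate 2, 5 of the 13 cytotoxic genes were called. Lag3, Tigit, Cd80 and Foxp3 were too low to be tested.

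B cell genes were sparse. Of 8 listed genes 6 were tested and 4 were called higher (Cd79b, Pax5, Ighm and Jchain), while Cd79a was among those too low. Cd79b, of the B cell receptor, ranged from 1.45 to 10.6 CPM against 0.224 to 8.14 CPM and was not separated, since CT2A had a higher mean than GL261. Without 005 3, 2 of the 6 genes were called, and with any 1 of CT2A 1 or 2, GL261 3 or Mut3 1 left out, 2 of the 7 then tested were. Of 11 dendritic cell genes 8 were separated but only Itgax, Ccr7 and Irf8 were called. The lineage-restricted markers Flt3 (1.22 ± 0.43), Zbtb46 (-0.02 ± 0.39) and Xcr1 (1.40 ± 0.76) did not pass the test. Irf8, a transcription factor of dendritic cells and macrophages, had 15.2, 45.8 and 72.8 CPM as the lowest, median and highest value against 2.69, 8.34 and 14.7 CPM, without overlap.

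Macrophage and microglial genes were higher in GL261 and 005, and most were called against Mut3 rather than against CT2A. Of 14 macrophage and monocyte genes 9 were called higher and 8 separated, and in none were the samples free of overlap. Adgre1, the gene for F4/80, ranged from 16.2 to 54.1 CPM against 2.01 to 25.2 CPM and was not called (1.22 ± 0.42, adjusted p = 0.0502). Cd68, a lysosomal marker of phagocytes, ranged from 79.7 to 254 CPM (median 126) against 18.5 to 95.2 CPM (median 57.3), with 1.27 ± 0.33 (adjusted p = 0.0169). Csf1r, the receptor on which these cells depend, was higher by 1.26 ± 0.30 (adjusted p = 0.0116). Against CT2A, 1 of the 14 genes was called higher in GL261 and 1 in 005, where 3.62% and 1.99% of all tested genes were. Against Mut3 8 and 11 were, where 11.1% and 14% of all tested genes were. Without Mut3 the edgeR test called 0 of the 14 (2 at an unadjusted p under 0.05). The share of all genes called higher was then 2.65%. Of 10 microglial genes 6 were called higher and 7 separated, and 3 showed no overlap, among them the receptor genes Gpr34 and P2ry13. Against CT2A the edgeR test called 0 of the 10 in GL261 and 0 in 005 (6 and 4 at an unadjusted p under 0.05). Against Mut3, 8 were called higher and 1 lower in GL261, and 7 were called higher in 005. Without Mut3, 1 of the 10 was called by edgeR, namely P2ry13 (1.21, adjusted p = 0.0439), and 5 had an unadjusted p under 0.05. P2ry12, a purinergic receptor of resting microglia, ranged from 9.05 to 38 CPM (median 16.8) against 1.9 to 12.5 CPM (median 6.52), with 1.77 ± 0.40 (adjusted p = 0.00849), and naïve brain was higher than every line at 49.9 CPM. Tmem119 (1.02 ± 0.39, adjusted p = 0.0784) and Sall1 (-0.19 ± 0.29), 2 further markers of resident microglia, were not called. Neutrophil genes went both ways, with S100a8, Csf3r and Retnlg called higher and the receptor Cxcr2 called lower (-1.57 ± 0.33, adjusted p = 0.0065). S100a9, the partner of S100a8, was at 1.06 ± 0.68 and Ly6g was too low to be tested. Among eosinophil and mast cell genes only Prg2 and Cpa3 of 8 were tested, and both were called higher, but 1 was separated. Their summed CPM was 0.808 to 3.15 in GL261, below the 4.27 to 7.36 of CT2A. DESeq2 called 1 of the 2. Without 005 only 1 was tested, and the edgeR test called 0 (0 at an unadjusted p under 0.05). Cpa3, a mast cell protease, reached 64.8 CPM in 005 replicate 2 and turned to -0.05 without Mut3, and Siglecf, Ccr3 and Epx were too low to be tested.

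Chemokine and complement genes were higher in GL261 and 005 as well. Of 15 chemokine ligands and receptors 12 were called higher and 10 separated. Cxcl9, a ligand that draws CXCR3+ T cells and is induced by interferon-γ, ranged from 50.4 to 2710 CPM (median 158) against 6.6 to 48.6 CPM (median 36). The samples did not overlap, by a narrow margin, and the log2 fold change was 3.64 ± 0.78 (adjusted p = 0.00669). Cxcl10, of the same receptor, was called (1.96 ± 0.55, adjusted p = 0.0229) but not separated, and the receptor Cxcr3 was higher by 2.30 ± 0.67 (adjusted p = 0.0262). All 11 complement genes were called higher, 9 were separated and 5 had no overlap (C1qa, C1qb, C1qc, C3 and Serping1). C1qa, C1qb and C1qc, the chains of the recognition molecule C1q made by microglia and macrophages, were higher by 1.73 ± 0.37, 1.61 ± 0.27 and 1.71 ± 0.31. C1qb had 128, 164 and 356 CPM as the lowest, median and highest value against 28.5, 66.1 and 111 CPM. Without Mut3, 1 chemokine gene was called, the monocyte attractant Ccl8 (3.68, adjusted p = 0.0236), and 3 complement genes were.

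**Figure D3:**
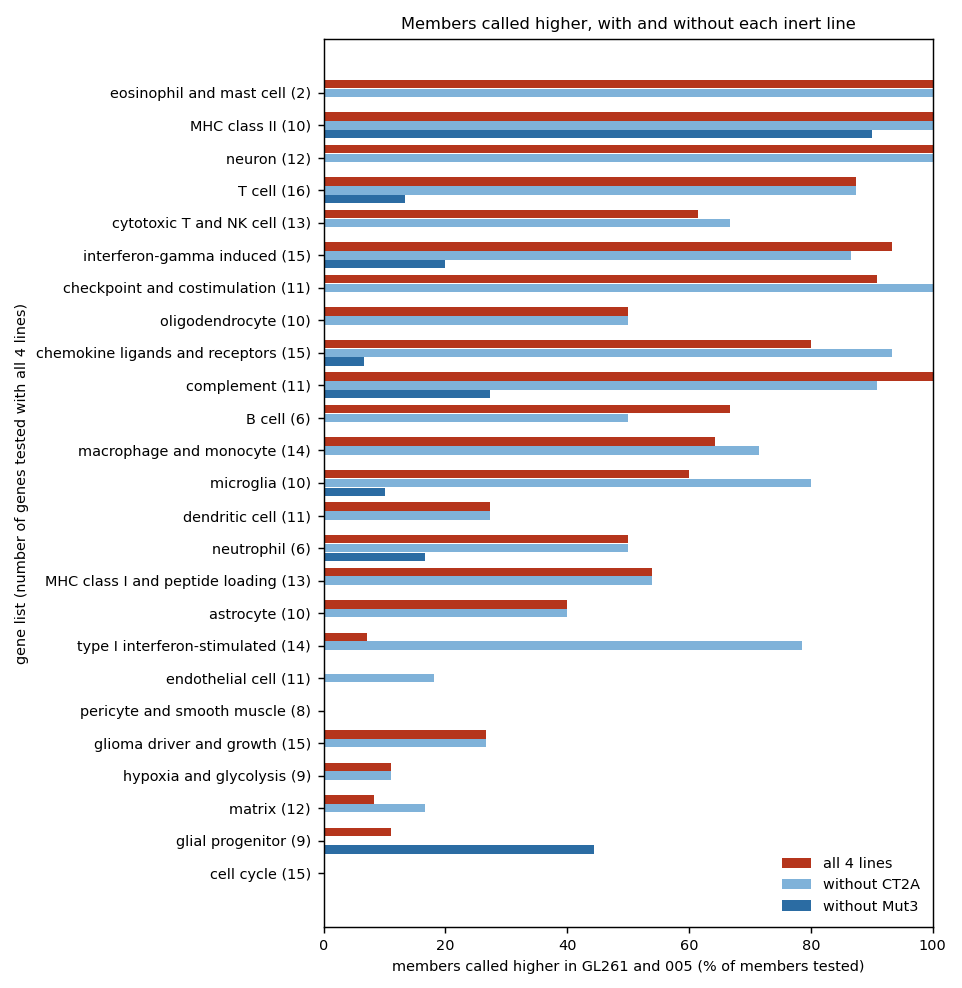
Share of each list's members called higher in GL261 and 005, in percent of the members tested, with all 4 lines, without CT2A and without Mut3 (bars; numbers of genes tested with all 4 lines in brackets). Without Mut3, 9 of 10 MHC class II genes were called by edgeR, and 0 of the neuron, cytotoxic and checkpoint genes were.

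Genes of normal neural tissue were also higher in GL261 and 005. All 12 neuron genes were called higher and separated, with a median log2 fold change of 2.45, although no gene was free of overlap. Snap25, a synaptic vesicle fusion protein, had 356, 904 and 477 CPM in GL261 and 267, 77.9 and 1830 CPM in 005. It had 466, 90.4 and 106 CPM in CT2A, 26.6 to 59.5 CPM in Mut3 and 1810 to 3350 CPM in naïve brain. The log2 fold change was 2.66 ± 0.65 (adjusted p = 0.012). Syt1, a synaptic calcium sensor, and Rbfox3, the gene for NeuN, were higher by 2.54 ± 0.74 (adjusted p = 0.0257) and 2.42 ± 0.61 (adjusted p = 0.014). Summed over the 12 genes, CPM ran from 242 to 4270 in GL261 and 005, from 65.7 to 1210 in CT2A and Mut3 and from 5470 to 6990 in naïve brain. In replicates 1, 2 and 3 of GL261 the neuron sums were 864, 2128 and 1169 CPM, beside T cell sums of 228, 150 and 197 CPM. In those of 005 they were 687, 242 and 4270 CPM, beside T cell sums of 131, 745 and 272 CPM. Naïve brain had T cell sums of 35.5 to 79.7 CPM, in which Trbc2 had 27.9 to 56.5 CPM. All 12 neuron genes and 8 of 10 oligodendrocyte genes were highest in naïve brain, whereas all 10 class II genes were lowest there. The part of neural tissue in the immune differences was not tested. Against Mut3, 11 neuron genes were called in GL261 and 12 in 005, where 11.1% and 14% of all tested genes were. Against CT2A the edgeR test called 0 in GL261 and 0 in 005 (0 and 3 at an unadjusted p under 0.05, in that order). The shares of all tested genes were 3.62% and 1.99% there. Without 005 replicate 3, 9 of the 12 neuron genes and 9 of the 10 class II genes were called, and without Mut3 the edgeR test called 0 of the neuron genes (3 at an unadjusted p under 0.05).

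Among other neural lists, 5 of 10 oligodendrocyte genes were called higher and 8 separated. Mog, on the myelin surface, was higher by 2.16 ± 0.53 (adjusted p = 0.0123), while Mbp, which compacts myelin, was separated but not called (1.61 ± 0.61, adjusted p = 0.0712). Of 10 astrocyte genes 4 were called higher (Aqp4, Slc1a2, Gja1 and Slc4a4). Aqp4, a water channel, was higher by 2.07 ± 0.46 (adjusted p = 0.00791), while the intermediate filament gene Gfap (0.17 ± 0.39) and the folate enzyme gene Aldh1l1 (0.92 ± 0.42) were not called. Without 005 replicate 3, 4 of the 10 oligodendrocyte genes and 3 of the 10 astrocyte genes were called higher. When Mut3 was left out, the edgeR test called 0 oligodendrocyte and 0 astrocyte genes (3 and 6 at an unadjusted p under 0.05). Against CT2A it called 0 oligodendrocyte genes in GL261 and 0 in 005 (2 and 4 at an unadjusted p under 0.05). Against Mut3 it called 5 in each. The edgeR test called 0 of 11 endothelial genes (4 at an unadjusted p under 0.05) and 0 of 8 pericyte and smooth muscle genes (2 at an unadjusted p under 0.05), and DESeq2 called 0 of each. Pecam1, the gene for CD31, was at 0.88 ± 0.18 (adjusted p = 0.00523), short of the fold threshold, Cldn5 was at 0.46 ± 0.39 and Cdh5 at 0.77 ± 0.31. The pericyte genes Pdgfrb, Rgs5 and Acta2 were at -0.62 ± 0.38, 0.48 ± 0.28 and 0.14 ± 0.27.

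Over all genes, those separated upward lay mostly on the side of normal brain. Of the 4668 genes separated with GL261 and 005 higher, 2845 (60.9%) were higher in naïve brain than in all 4 lines, 1081 (23.2%) lay between and 742 (15.9%) were lower in naïve brain than in all lines. Among genes that were not separated these shares were 24.6%, 41.6% and 33.7%. Of the 3340 genes separated with GL261 and 005 lower, 288 (8.62%) were highest in naïve brain and 1745 (52.2%) were lowest there. The shares were read from the same tumor means as the separation and are given without a test. They leaned on 005 replicate 3, for without it 3644 genes were separated upward, 1787 (49%) of them highest in naïve brain.

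**Figure D4:**
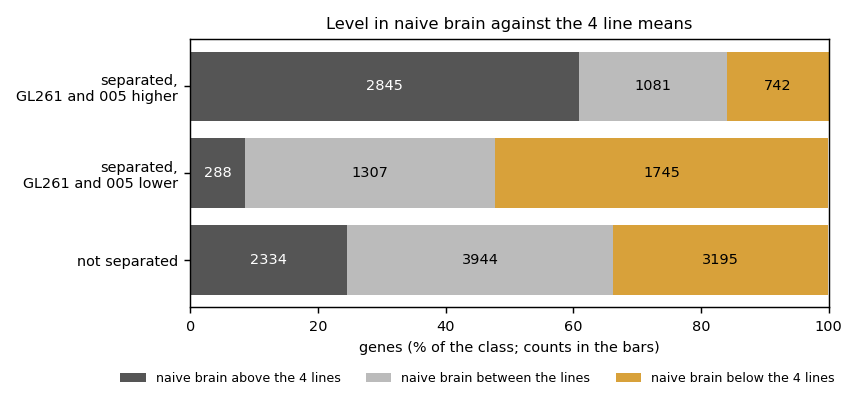
Position of naïve brain relative to the 4 line means for genes separated upward, separated downward and not separated (bars, percent of each class; numbers, genes). Naïve brain lay above all lines in 60.9% of the genes separated upward and 8.62% of those separated downward.

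Genes that were lower in GL261 and 005 included a calpain, a galectin and a zinc finger gene. By the rule for named genes (protein-coding, called, separated, free of overlap and expressed, 136 genes), the largest changes were in Lgals7, Capn6, Sfrp4, Zfp575, Glb1l, Mfap4, Srpx2, Plac1, Nxf3 and Gm11127. Capn6, a calpain family gene (chrX:143802231-143827414, GRCm38, reverse strand), had 67, 94.2 and 102 CPM in CT2A and 38, 25.4 and 74.6 CPM in Mut3. It had 3.73, 7.43 and 8.86 CPM in GL261, 1.03, 1.57 and 1.5 CPM in 005 and 0.541 to 2.99 CPM in naïve brain, and fell by 4.38 on the log2 scale (SE 0.38, adjusted p = 2.03e-05). Zfp575, a zinc finger gene (chr7:24583838-24587641), had 233 to 478 CPM in CT2A and 61.9 to 163 CPM in Mut3, against 7.92 to 8.29 CPM in GL261, 7.97 to 19.1 CPM in 005 and 8.36 to 8.47 CPM in naïve brain. Its log2 fold change was -4.04 ± 0.32 (adjusted p = 1.34e-05). The galectin gene Lgals7 (-4.84 ± 0.55), the Wnt antagonist gene Sfrp4 (-4.27 ± 0.59) and the microfibril gene Mfap4 (-3.64 ± 0.41) were also lower, with Mfap4 highest in Mut3 (mean 126 CPM) and Lgals7 in CT2A (mean 87.9 CPM). Glb1l, Srpx2, Plac1, Nxf3 and Gm11127 had log2 fold changes of -4.02, -3.55, -3.39, -3.26 and -3.10.

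Proliferation genes leaned downward without passing the test in most cases. Of 15 cell cycle genes 12 were separated with GL261 and 005 lower, 3 were called lower (Mki67, Ccnb1 and Mcm5) and the median log2 fold change was -0.66. Mki67, the gene for Ki67, ranged from 7.9 to 94.3 CPM (median 46.2) against 62 to 284 CPM (median 103), with -1.42 ± 0.42 (adjusted p = 0.0281). The lowest value was that of 005 replicate 3, and 3 genes of the list were called without that library. Top2a, the topoisomerase of dividing cells, was at -0.91 ± 0.39 (adjusted p = 0.105), and Cdk1, the mitotic kinase, at 0.01 ± 0.43. Without Mut3 the edgeR test called 0 cell cycle genes (3 at an unadjusted p under 0.05), where 3.91% of all genes were called lower. Leaving out single libraries moved the count of 3 to between 0 and 6, at 0 without CT2A 3, GL261 2, Mut3 1 or Mut3 3, at 1 without CT2A 2 or GL261 1, and at 6 without 005 2. Of 9 glial progenitor genes, 4 were called lower, among them Pdgfra, Sox2 and Cspg4, and Sox10 was called higher. Without Mut3, 4 of the 9 were called higher, among them Olig2, Olig1 and Sox10, and 1 lower, whereas without CT2A 7 were called lower (6.44% of all genes were). Pdgfra, a growth factor receptor of oligodendrocyte progenitors, ranged from 6.9 to 28.1 CPM (median 15.5) against 18.9 to 53.3 CPM (median 42), with -1.41 ± 0.25 (adjusted p = 0.00256). Olig2 and Olig1, transcription factors of that lineage, divided the inert lines instead, with log2 differences of CT2A minus Mut3 of -5.93 and -4.52 (adjusted p = 2.74e-05 and 0.00116), where 6.15% of all tested genes were called lower in CT2A.

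Of 12 matrix genes Tnc was called higher (1.52 ± 0.36) and Col4a1 and Col6a1 lower (-1.58 ± 0.37 and -2.27 ± 0.32). The fibrillar collagen genes Col1a1, Col1a2 and Col3a1 were at -0.17 ± 0.46, -0.01 ± 0.51 and -1.17 ± 0.44. For this and the next 2 lists, the background was 12.6% of all tested genes called higher and 4.29% called lower. The 1 matrix gene and the 1 hypoxia gene called higher do not exceed that share. Of 9 hypoxia and glycolysis genes Ldha, lactate dehydrogenase, was called lower (-1.21 ± 0.26, adjusted p = 0.00645) and Ndrg1 higher. Vegfa, an angiogenic growth factor, was at -0.96 ± 0.29 (adjusted p = 0.0311), short of the fold threshold, and the glucose transporter gene Slc2a1 at 0.17 ± 0.28. Ca9 was not analysed here. Among 15 glioma driver and growth genes, Met, Mycn, Igf2 and Hmga2 were called higher and Trp53 and Egfr lower. Trp53, the tumor suppressor, had 53.4 to 67.3 CPM in CT2A, 43 to 86.7 in Mut3, 26 to 47.3 in GL261 and 14.6 to 20.2 in 005, with -1.26 ± 0.23 (adjusted p = 0.00316). Whole tumor RNA includes host cells and a transcript can be present without its protein, so the level of Trp53 does not check the labels. Nf1 was separated upward at 0.89 ± 0.25 (adjusted p = 0.0226), short of the fold threshold.

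The largest upward changes over all genes fell partly in the lists and partly outside them. By the same rule 154 genes qualified, and the 10 with the largest change were Ubd, Gm7247, Ly6a, Apol10b, Gm4841, Ly6c1, Cxcl9, F830016B08Rik, Gbp4 and H2-Eb1. Ubd, a ubiquitin-like modifier induced by interferon-γ and tumor necrosis factor, had 335, 66.8 and 140 CPM in GL261 and 66.1, 517 and 69.1 CPM in 005. It had 14.5, 9.31 and 14.9 CPM in CT2A, 1.9, 1.38 and 9.94 CPM in Mut3 and 1.84 to 4.73 CPM in naïve brain, a log2 fold change of 4.70 ± 0.68 (adjusted p = 0.00097). Ly6a, the gene for Sca-1, ranged from 193 to 2590 CPM (median 993) against 23.9 to 163 CPM (median 91.4), with 4.04 ± 0.54 (adjusted p = 0.000606). Its neighbor Ly6c1 was higher by 3.70 ± 0.54, and reads of these close family members may be shared. Gbp4 and Apol10b were higher by 3.48 ± 0.54 and 3.89 ± 0.62. Gm7247, Gm4841 and F830016B08Rik, known by model names, were higher by 4.50 ± 0.61, 3.79 ± 0.52 and 3.62 ± 0.49. Since Ubd, Cxcl9 and H2-Eb1 are also list members, their appearance here is not a second result.

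**Figure D5:**
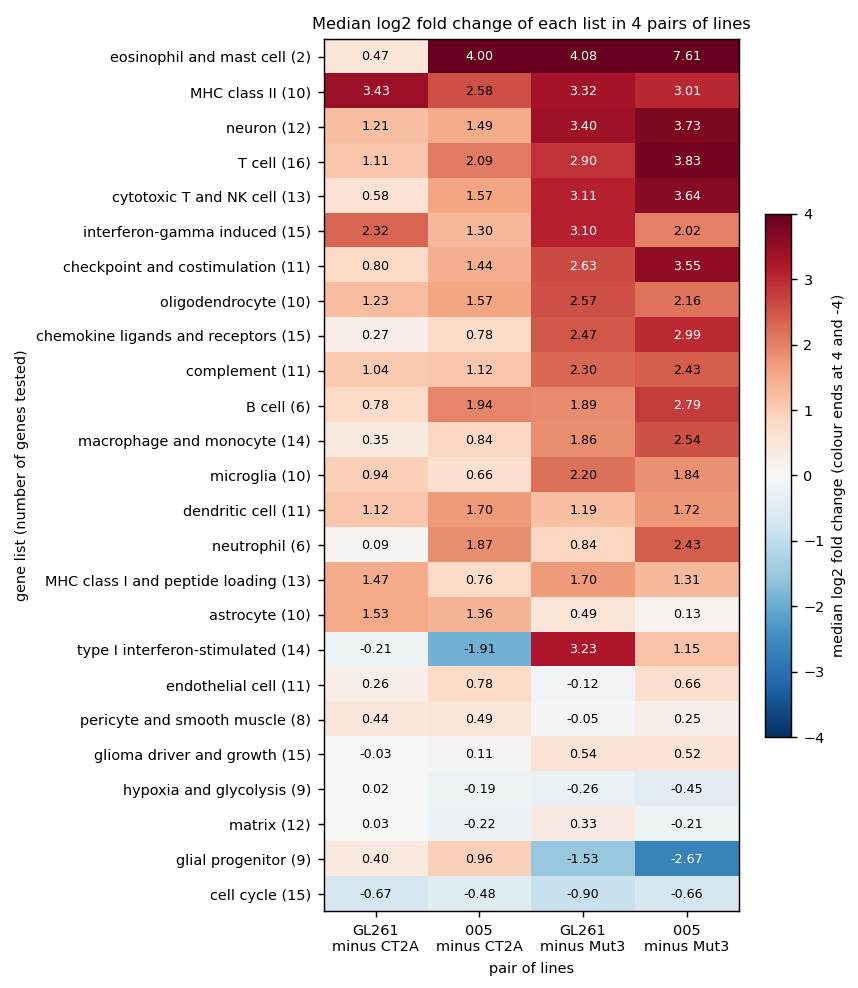
Median log2 fold change of each list in the 4 pairs of an active and an inert line (numbers and colour; numbers of tested genes in brackets). MHC class II genes lie between 2.58 and 3.43 in all 4 pairs, whereas type I interferon-stimulated genes run from -1.91 (005 minus CT2A) to 3.23 (GL261 minus Mut3).

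When the spread between lines was taken into account in part, few genes were called. With line as a random block in limma, where mice of a line are correlated by an estimated 0.259, 1 gene was called higher (0.00582%) and 13 lower (0.0756%). The same correlation was used for all genes. For a gene that varied more between lines, mice were still treated partly as repeats of the class. That fit called 0 members of the lists, although 2647 genes had an unadjusted p under 0.05, among them 10 of 10 MHC class II, 11 of 15 interferon-γ-induced and 11 of 12 neuron genes. The 1 higher gene was Cd302, a C-type lectin receptor, at a log2 fold change of 2.25 (adjusted p = 0.0444). Among the 13 lower genes were Capn6 (-4.50, adjusted p = 0.0442), Zfp575 (-4.05), the collagen chaperone gene Serpinh1 (-2.27), the Wnt secretion gene Wls (-1.83), the DNA polymerase gene Pola1 (-1.43) and the kinase gene Map2k6 (-2.48, adjusted p = 0.0468). Zfp575, Serpinh1, Wls and Pola1 had an adjusted p of 0.0444. These genes, other than Capn6 and Zfp575, were chosen after their values were seen. Without Mut3, 443 genes were called higher in place of 2209, and 268 were shared between both fits.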

How the data were processed

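RNA was sequenced from 3 naïve mouse brains and from 3 tumors of each of the lines CT2A, GL261, 005 and Mut3. The labels name STAR alignment to the mouse genome with a GENCODE annotation, whereas the submitters' processing notes name Salmon, DESeq2 1.18.1 and the mm10 build, so that the route from reads to values is not fully settled. The authors deposited 1 table of expected counts per gene, which were rounded to whole numbers here, and 1 table of TPM values (transcript abundance scaled to a fixed total per sample), which served only as an alternative scale. The deposited count and TPM values of a gene differed by a factor for the gene and a factor for the sample (largest log2 residual 9.6e-10 over 4644 genes), so they are not independent. Of the genes, 14029 were at 0 in all samples and 17481 passed the filterByExpr filter by group. No pair of libraries held identical values.

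The quasi-likelihood test of edgeR 4.0.16 in R 4.3.3 with TMM scaling was fitted to all 15 samples with 1 mean per group, and the contrast was the mean of GL261 and 005 minus the mean of CT2A and Mut3. The study's methods name no test for the RNA data. Naïve brain had no weight in the contrast but entered the filter, the TMM factors and the estimate of spread, and with the 12 tumor samples alone 17186 genes were tested and their median log2 fold change was 0.033 in place of 0.101. A call required a Benjamini-Hochberg adjusted p below 0.05 over all tested genes and a log2 difference of 1 or more in size. The SE was taken as the absolute log2 fold change over the square root of the F statistic. Line means for separation were taken in log2 CPM (prior count 2). Alternatives were DESeq2 1.42.0, limma 3.58.1 with line as a random block, a replicate block, other scales and filters, and each line or tumor left out in turn. On simulated data of 17481 genes for this comparison, 6 of 54 genes changed 2-fold, 47 of 76 changed 4-fold and 53 of 68 changed 8-fold were called, and 4 of 110 called genes were unchanged ones. The simulated lines of a class did not differ from each other. These counts therefore do not show how often spread between real lines gives a false call.

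The compared lines and the 297 listed genes, of which 278 were tested, were chosen with earlier results of these data known. Named genes were the first 3 of each list plus members needed to say which moved, the 10 protein-coding genes per direction with the largest change among those called, separated, without overlap and with a mean log2 CPM of at least 3 on the higher side, and the genes nearest the separation limit. The study gives 3 mice per group, and replicate numbers come from the labels. Positions are from GENCODE on GRCm38 and promoter sequences from RefSeq. A few genes are not reported here by name or value, although they count in the totals of their lists.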

Additional observations from a re-analysis of the deposited data

Results flagged for a closer look

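Among 50 list scores (mean log2 CPM of a list over the 6 tumors of a side), 3 had 1 tumor far from the other 5, a distance that chance gives in about 1 of 20 groups. In 005 replicate 2, the checkpoint and costimulation score was 4.59 against 2.13 to 3 in the other GL261 and 005 tumors, and the chemokine score was 6.68 against 4.73 to 5.45. In 005 replicate 3, the cell cycle score was 3.26 against 5.08 to 6.09.

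Lines of the same class differed from each other by the edgeR test in some of the 89 genes compared. Between GL261 and 005, where 2.62% of all tested genes differed, 5 of the 89 did, all higher in GL261: Nxf3 by 4.12 log2 units (adjusted p = 8.64e-05), Gm11127 by 2.25 (adjusted p = 0.00734), Ifit1 by 2.23 (adjusted p = 0.0273), Capn6 by 2.29 (adjusted p = 0.0299) and Col3a1 by 2.62 (adjusted p = 0.0452).

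Between CT2A and Mut3, 18 of the 89 genes differed, where 12.8% of all tested genes did. Immune genes were higher in CT2A, namely Gzmb by 4.79 (adjusted p = 0.00087), Prf1 by 5.89 (adjusted p = 0.00888), Cd274 by 2.28 (adjusted p = 0.0449), Cd79b by 3.02 (adjusted p = 0.0187), Tmem119 by 2.37 (adjusted p = 0.0155) and B2m by 1.9 (adjusted p = 0.0366). The type I interferon-stimulated genes Ifit1, Isg15 and Ifit2 were higher in CT2A by 4.67, 3.21 and 2.52 (adjusted p = 0.000156, 0.00584 and 0.0035). Also higher in CT2A were Col3a1 by 3.33, Plac1 by 3.18, Sfrp4 by 2.55, Aqp4 by 2.16 and Zfp575 by 1.8 (adjusted p = 0.00472, 0.0106, 0.0305, 0.0423 and 0.00988). The differences of CT2A minus Mut3 were negative for Olig2 at -5.93, Olig1 at -4.52, Mfap4 at -3.42 and the microglial factor Sall1 at -1.59 (adjusted p = 2.74e-05, 0.00116, 0.00124 and 0.0211).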

How the results depend on the processing

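The counts of 2209 genes called higher and 750 called lower became 856 and 377 with at least 10 counts in every sample, where 9435 genes were tested. With no fold threshold 1149 genes were called lower, and without GL261 430 were. Without Mut3, 443 genes were called higher and 654 lower, so that 40.4% of calls were higher in place of 74.7%. With line as a random block, 1 gene was called higher and 13 lower, or 7.14% higher. Without Mut3, Tnfrsf9 turned to -0.14, Cpa3 to -0.05, Oasl2 to -0.38, Cxcl13 to -1.3, Gja1 to -0.22 and Hmga2 to -0.66 in log2 fold change. The cause of these changes was not tested. With 1 tumor left out, 1480 to 2486 genes were called higher and 532 to 847 lower. Without 005 replicate 3 the counts were 1597 higher and 847 lower. Over all single genes and settings, 6154 values kept their side of the threshold, 601 lost the call and 129 gained it. The other 6 were genes called with all samples that changed direction. Changes of direction in genes not called with all samples were not counted. Prf1 and B2m, for example, turned to -1.31 and -0.64 without Mut3.

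On the log2(TPM + 1) scale 1973 genes were separated downward, 655 of them lowest in naïve brain, and 4281 of those separated upward were highest in naïve brain. On the log2(TPM + 0.1) scale the first 2 of these counts were 2033 and 696. With no filter other than 1 count 8555 genes were separated upward and 5363 downward. With at least 10 counts in every sample the counts were 2261 and 1981, with 1485 and 981 highest and lowest in naïve brain. With a gap of at least 1 log2 unit they were 985 and 240, with 679 and 101. With no overlap between samples they were 332 and 351, with 133 and 154. With 1 tumor left out, 3644 to 5360 genes were separated upward and 3033 to 3559 downward, with 1787 to 3134 highest and 1330 to 1926 lowest in naïve brain, and 1787 was the value without 005 replicate 3.

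With the replicate number as a block, 1619 genes were called higher and 632 lower. Deviations of the 18 pairs of samples with the same number correlated at -0.331 to 0.262, and 1 was over 0.1, against 11 of 36 pairs with different numbers, so the numbers were not taken as pairing the samples.

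Leaving out single tumors also moved smaller counts. Endothelial genes called higher went from 0 to 1 without CT2A replicate 3 and pericyte genes from 0 to 1 without 005 replicate 3. Type I interferon-stimulated genes called higher went from 1 to 2 without Mut3 replicate 2, and those called lower from 0 to 1 without 005 replicate 2. Macrophage genes called lower also went from 0 to 1 without 005 replicate 2, neutrophil genes called lower from 1 to 2 without GL261 replicate 3, and hypoxia genes called lower from 1 to 2 without CT2A replicate 1, 005 replicate 1 or Mut3 replicate 2. Glial progenitor genes called lower went from 4 to 2 without CT2A replicate 2 or Mut3 replicate 1. Driver genes called lower went from 2 to 1 without CT2A replicate 1 or 3, GL261 replicate 1 or 2 or Mut3 replicate 2, and to 4 without 005 replicate 2.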

Other observations

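Xist, the RNA that silences an X chromosome in female cells, was at 318, 235 and 393 CPM in the 3 CT2A tumors. The other tumors had 2.79 to 47.5 CPM, and naïve brain had 36.1, 145 and 19.7 CPM. CT2A was thus the highest of the 4 lines in every tumor. Genes on the X chromosome were 3.57% of the genes tested (622), 2.82% of those called lower in GL261 and 005 and 3.72% of those lower without overlap between samples. In the other direction they were 4.06% of the genes called higher and 3.66% of those higher without overlap. The median log2 fold change was 0.29 for X genes tested and 0.1 for other genes. Among genes called lower it was -2.05 and -1.48. These values cover both lines of a side, and Xist in Mut3 was 2.79 to 12.2 CPM, so they do not describe CT2A alone.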
